A study of Mus musculus with 12 samples.

Results

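The antiviral interferon-stimulated genes were followed through a mouse macrophage array experiment. These are genes that cells switch on in response to interferon and whose products hinder viruses. A list of 42 such genes, in 8 function groups, was matched to probe sets that name a single gene, and the probe set with the highest mean over all arrays stood for each gene. By this rule 36 of the 42 genes were measured, out of 12393 genes in all, and Isg15, Herc6, Dtx3l, Samd9l, Ifi44 and Xaf1 were not analysed here. Each of 12 Affymetrix arrays read 1 sample of macrophages grown from mouse bone marrow for 5 days in 30% L-cell conditioned medium. All animals were of the strain 129-SvEv-Tac and all lacked Il10, so that no group could make its own interleukin 10 (IL-10), a cytokine that restrains macrophages. The IL10-/- groups carried this deletion alone, and the p50-/-IL10-/- groups also lacked p50 and its precursor p105, NF-kB proteins from 1 gene that this knockout removes together. In each genotype the cells were left without stimulus, given 1 ng/ml lipopolysaccharide (LPS, a part of the outer wall of bacteria), or given this dose of LPS together with 0.3 ng/ml IL-10. The cells were harvested for RNA 4 h later, and each of the 6 groups held 2 arrays. No group had an intact Il10 gene, the genotypes were taken from the labels, and the Nfkb1 transcript was not analysed here.

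LPS binds TLR4 on macrophages, and from there the adaptor TRIF leads through the kinase TBK1 and the factor IRF3 to interferon beta, encoded by Ifnb1. Secreted interferon beta binds the receptor IFNAR on the same and neighbouring cells, and the kinases JAK1 and TYK2 then activate STAT2, which joins IRF9 in the complex ISGF3. ISGF3 binds the interferon-stimulated response element (ISRE) in front of its target genes, and some of these genes are also reached directly by interferon regulatory factors.

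Stretches of the promoter windows of 5 members are given because each holds the ISRE letters near the gene's start. The search used GAAANNGAAA on both strands, in windows from 250 bases before to 50 bases after the start of transcription, as RefSeq gives them for GRCm38.p6. Capitals mark the matches, and a match on the other strand reads as TTTC repeats. The sequences run 5′ to 3′ along the gene's own strand.

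Ifit1, chr19:34640745-34640853, plus strand: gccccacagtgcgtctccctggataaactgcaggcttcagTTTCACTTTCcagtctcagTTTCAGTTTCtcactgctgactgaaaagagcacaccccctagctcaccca

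Ifit3, chr19:34583333-34583456, plus strand: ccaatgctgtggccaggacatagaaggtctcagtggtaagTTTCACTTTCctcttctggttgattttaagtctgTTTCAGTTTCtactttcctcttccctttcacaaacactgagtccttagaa

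Rsad2, chr12:26456523-26456612, minus strand: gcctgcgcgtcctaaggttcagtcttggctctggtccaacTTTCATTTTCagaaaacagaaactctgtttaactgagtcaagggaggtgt

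Oas3, chr5:120777685-120777774, minus strand: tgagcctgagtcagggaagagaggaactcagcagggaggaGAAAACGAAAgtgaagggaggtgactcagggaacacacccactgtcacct

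Bst2, chr8:71537547-71537642, minus strand: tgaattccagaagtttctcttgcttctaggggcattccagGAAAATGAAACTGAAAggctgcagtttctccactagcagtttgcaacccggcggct

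Of the 36 measured members, 26 had a promoter window in the table. ISRE letters were found for 10 of these 26 (38.5%), namely Ifit1, Ifit3, Rsad2, Oas3, Bst2, Eif2ak2, Ifih1, Ifitm3, Trim21 and Trim30a. The same letters stood in the windows of 3.99% of all 27025 genes in the table. A kB motif, to which NF-kB can bind, was found for 6 of the 26 members (23.1%) and for 9.55% of all genes, and no match overlapped an ISRE match. A match is a description of the letters in this window and not of binding. As a description with no test, the 10 genes with ISRE letters and the 16 without had median LPS responses of 2.28 and 1.79 log2 in IL10-/- and of 2.29 and 1.34 in p50-/-IL10-/- cells. Their medians for the IL-10 effect in LPS-treated cells were -1.38 and -1.36 in IL10-/- and -0.28 and -0.29 in p50-/-IL10-/- cells.

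Values are log2 expression, so that a difference of 1 is a doubling, and array medians lay between 6.92 and 6.96. The arrays were scaled to a common distribution, so a change in total RNA per cell is not visible, and in such bulk samples fewer cells of a type and less RNA per cell cannot be told apart. The 7 macrophage markers were measured on all arrays, with means of 11.55 to 12.03 in IL10-/- and 11.68 to 12.07 in p50-/-IL10-/- arrays. Neutrophil markers (6 of 7 measured) had means of 8.66 to 8.89 in IL10-/- and 8.03 to 8.21 in p50-/-IL10-/- arrays. Dendritic cell markers (5 of 6 measured) had means of 6.15 to 6.37 and 6.71 to 6.97, and Itgax alone lay at 7.49 to 8.40 in IL10-/- and 10.31 to 10.96 in p50-/-IL10-/- arrays, while Xcr1 and Zbtb46 were dim in all 6 groups. Of the plasmacytoid dendritic cell markers, 4 of 5 were measured, at means of 8.44 to 9.13 and 9.19 to 9.46, but Bst2 is itself a member here and Ccr9 was dim in every group. B cell markers (4 of 5 measured) lay at 5.74 to 6.00 and 5.63 to 6.00, and T and NK cell markers (5 of 6 measured) at 5.72 to 5.88 and 5.76 to 5.93. Stromal cell markers (5 measured) had means of 5.86 to 6.47 in IL10-/- and 5.33 to 5.63 in p50-/-IL10-/- arrays, with Col1a1 and Lum dim in all groups. The neutrophil, both dendritic cell lists and the stromal list thus differed between genotypes without overlap. Without Itgax the dendritic cell means were 5.81 to 5.92 in IL10-/- and 5.80 to 6.00 in p50-/-IL10-/- arrays, and without Bst2 the plasmacytoid means were 8.36 to 8.82 in IL10-/- and 8.65 to 8.95 in p50-/-IL10-/- arrays, so that these lists then overlapped. The part of the marker lists in the genotype differences of the members was not tested. Dim here means a group mean under 5.83, the median of the arrays' lower quartiles, and no member had a group mean under it.

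Within the IL10-/- groups, the array numbered 2 read lower than the array numbered 1 for nearly every member. Array 1 was higher for 35 of 36 members without stimulus, for 35 of 36 with LPS and for 36 of 36 with LPS and IL-10, and the median gaps were 1.05, 0.59 and 0.97 log2. The mean over the 36 members was 9.17 and 8.01 without stimulus, 11.13 and 10.42 with LPS, and 9.83 and 8.65 with LPS plus IL-10, each time array 1 before array 2. In p50-/-IL10-/- cells these means were 9.83 and 9.59, 11.70 and 11.52, and 11.16 and 11.34. The gap was thus small there, with medians of 0.25, 0.18 and -0.16 log2. Array 1 was higher for 32 of 36 members without stimulus and for 27 of 36 with LPS. The gap turned over in the group given LPS and IL-10, where array 1 was higher for 3 of 36 members. Over all genes, array 1 was higher for 43.4%, 51.7% and 50.9% in these 3 groups.

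This gap was not shared by genes at large. Over all 12393 genes, array 1 was higher for 45.2%, 48.5% and 51.6% in the 3 IL10-/- groups. A gap of more than 1 log2 in either direction was found for 18, 9 and 18 of the 36 members and for 0.605%, 0.468% and 0.484% of all genes. In the p50-/-IL10-/- groups 0 of 36 members had such a gap. The gap was widest in the OAS and IFIT groups, with medians of 1.99 and 2.16 without stimulus, and the PML body group had a median of 0.34 there, 0.59 with LPS and 0.73 with both stimuli. Trim25, a ligase that modifies the RNA sensor RIG-I, went against it, with 10.24 and 10.51 without stimulus and 10.37 and 10.42 with LPS. Stromal markers ran the other way, with means of 5.86, 5.97 and 5.91 on arrays numbered 1 and 6.33, 6.47 and 6.30 on arrays numbered 2 of the IL10-/- groups, led by Dcn and Col3a1, and their part in the gap was not tested. The labels call the arrays biological replicates without naming cultures or animals, and they give no reason to prefer either number. Member counts or medians that rest on the IL10-/- arrays are thus given with and without each, and those of pathway genes only in part. Leaving out a number leaves 1 array in each IL10-/- group, and limma then takes the spread from the p50-/-IL10-/- arrays alone. The gap between IL10-/- arrays then no longer enters the SE, so a higher count in such a fit does not show a larger or surer effect. This holds also for comparisons within p50-/-IL10-/- cells, whose own arrays stay the same.

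**Figure D1:**
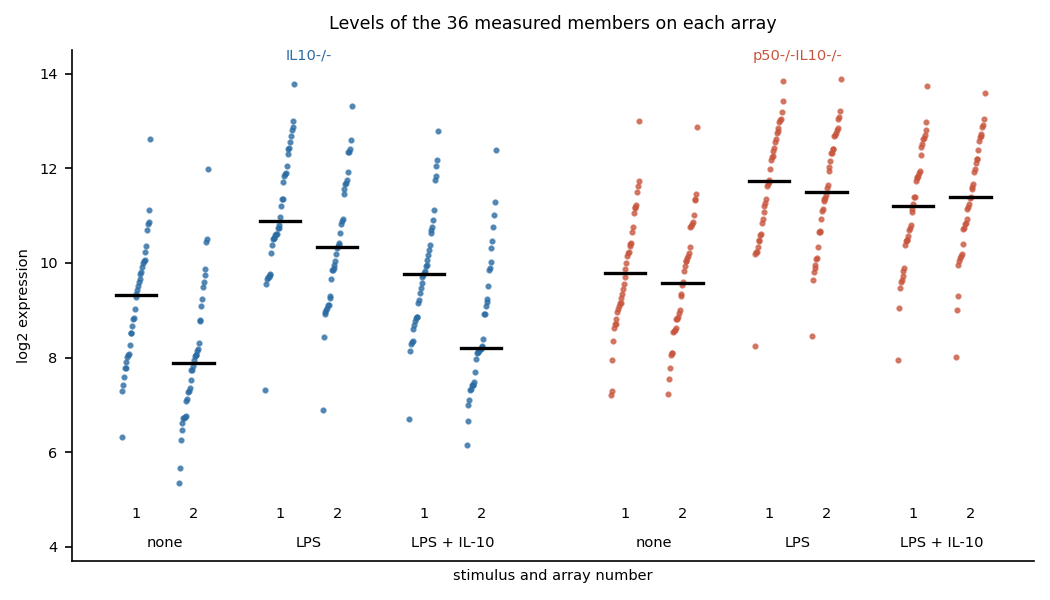
Log2 expression of the 36 measured members (points, ordered by level within an array) on each of the 12 arrays, by stimulus and array number, with black bars for medians. In IL10-/- cells (blue) the array numbered 2 lies below array 1 at every stimulus, with median gaps of 1.05, 0.59 and 0.97, and in p50-/-IL10-/- cells (red) the arrays of a group lie close together.

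The nucleic acid sensors include Ifih1, which encodes MDA5, a sensor of long double-stranded RNA. In IL10-/- cells Ifih1 read 9.51 and 8.80 unstimulated, 12.04 and 11.55 with LPS, and 10.76 and 10.31 with LPS plus IL-10. Ifih1 read 9.87 and 9.83 unstimulated, 12.79 and 12.40 with LPS, and 11.94 and 12.20 with LPS plus IL-10 in p50-/-IL10-/- cells. Both genotypes went up with LPS without overlap, and after IL-10 the IL10-/- arrays lay between their unstimulated and LPS values. Zbp1 senses Z-form nucleic acid and can start necroptosis. Its values in IL10-/- cells were 7.77 and 6.61 unstimulated, 9.66 and 8.43 with LPS, and 8.86 and 7.01 with LPS plus IL-10. Those in p50-/-IL10-/- cells were 8.63 and 8.53 unstimulated, 10.33 and 9.89 with LPS, and 9.83 and 10.18 with LPS plus IL-10. The IL10-/- arrays of Zbp1 overlapped between LPS and LPS with IL-10, because array 1 given both stimuli exceeded array 2 given LPS alone. The other sensors, Dhx58 (LGP2), Eif2ak2 (PKR, which stops translation), Adar (an editor of double-stranded RNA) and Ifi204 (a DNA sensor), had array values from 6.27 to 10.73 on IL10-/- arrays and from 7.30 to 11.27 in p50-/-IL10-/- cells.

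The OAS enzymes make short oligoadenylates that switch on the RNA-cutting enzyme RNase L, and the OAS-like protein of Oasl1 acts in another way, by holding back the translation of Irf7. Oasl1 read 7.42 and 6.47 unstimulated, 11.36 and 9.85 with LPS, and 9.16 and 7.33 with LPS plus IL-10 in IL10-/- cells. Without p50 it read 8.96 and 8.57 unstimulated, 12.56 and 12.33 with LPS, and 11.84 and 12.21 with LPS plus IL-10. In the p50-/-IL10-/- cells given both stimuli it thus stayed within 1 log2 of the LPS level on both arrays. In IL10-/- cells given both it lay above the unstimulated array of the same number, at 9.16 against 7.42 and 7.33 against 6.47. Oas3 was 9.92 and 7.29 unstimulated, 10.62 and 9.01 with LPS, and 9.94 and 7.48 with LPS plus IL-10 in IL10-/- cells. It was 11.06 and 11.01 unstimulated, 11.63 and 11.31 with LPS, and 11.14 and 11.38 with LPS plus IL-10 in p50-/-IL10-/- cells, already at 11 or more before any stimulus. The gap between unstimulated IL10-/- arrays of Oas3 exceeded its whole LPS effect, so little can be said of that effect in this genotype.

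The IFIT proteins bind viral RNA and block its translation, and their genes lie next to each other. Ifit1 read 9.34 and 7.73 unstimulated, 12.88 and 12.35 with LPS, and 11.12 and 9.86 with LPS plus IL-10 in IL10-/- cells. In cells without p50 as well it read 10.00 and 9.53 unstimulated, 13.19 and 13.05 with LPS, and 12.81 and 12.91 with LPS plus IL-10. For Ifit2 the IL10-/- values were 9.43 and 7.27 unstimulated, 12.43 and 11.46 with LPS, and 10.07 and 8.11 with LPS plus IL-10. The p50-/-IL10-/- values of Ifit2 were 10.35 and 10.05 unstimulated, 12.97 and 12.85 with LPS, and 12.44 and 12.58 with LPS plus IL-10. With both stimuli, the IL10-/- arrays of Ifit2 differed from the LPS arrays of the same number by -2.36 and -3.35, and the p50-/-IL10-/- arrays by -0.53 and -0.27. Ifit3 followed a like course, from 13.01 and 11.76 with LPS to 10.64 and 8.23 with IL-10 in IL10-/- cells and from 13.41 and 13.20 to 12.65 and 12.88 in p50-/-IL10-/- cells.

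ISG15 is a ubiquitin-like protein that is attached to other proteins, with Uba7 as its activating enzyme, Ube2l6 as its conjugating enzyme and Usp18 as the protease that removes it and also quiets the interferon receptor. Usp18 read 8.52 and 7.08 unstimulated, 11.87 and 10.92 with LPS, and 9.58 and 7.69 with LPS plus IL-10 in IL10-/- cells. Its p50-/-IL10-/- values were 9.34 and 8.93 unstimulated, 12.37 and 12.32 with LPS, and 11.80 and 12.10 with LPS plus IL-10. The 4 p50-/-IL10-/- arrays with LPS, with or without IL-10, all lay at 11.80 or above, and in IL10-/- cells IL-10 took array 2 to 7.69. Ube2l6 was 6.31 and 5.66 unstimulated, 7.32 and 6.89 with LPS, and 6.70 and 6.14 with LPS plus IL-10 in IL10-/- cells. It was 7.21 and 7.24 unstimulated, 8.23 and 8.45 with LPS, and 7.94 and 8.0 with LPS plus IL-10 in p50-/-IL10-/- cells, above the IL10-/- arrays at each stimulus without overlap. Array 2 of the unstimulated IL10-/- cells was dim for Ube2l6, so its size of change there is uncertain.

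Among the ADP-ribosyltransferases and TRIM ligases, Parp14 modifies proteins with ADP-ribose. Its IL10-/- values were 10.70 and 9.88 unstimulated, 12.67 and 12.60 with LPS, and 11.83 and 11.29 with LPS plus IL-10. Its p50-/-IL10-/- values were 11.22 and 10.76 unstimulated, 13.01 and 12.81 with LPS, and 12.71 and 12.73 with LPS plus IL-10. Parp14 lay above the unstimulated arrays on every array with LPS, and with LPS alone the genotypes differed by 0.28 ± 0.25 log2. Trim21 is a receptor for antibodies inside the cell and a ubiquitin ligase. It read 8.67 and 8.31 unstimulated, 10.75 and 10.38 with LPS, and 9.22 and 8.91 with LPS plus IL-10 in IL10-/- cells. It read 8.82 and 8.81 unstimulated, 11.71 and 11.64 with LPS, and 11.08 and 11.18 with LPS plus IL-10 in p50-/-IL10-/- cells. The arrays of Trim21 differed by at most 0.37 log2 within a group. Trim25 read 10.24 and 10.51 unstimulated, 10.37 and 10.42 with LPS, and 9.36 and 9.08 with LPS plus IL-10 in IL10-/- cells. It read 10.41 and 10.33 unstimulated, 10.60 and 10.65 with LPS, and 10.38 and 10.40 with LPS plus IL-10 in p50-/-IL10-/- cells, so that only the IL10-/- arrays with IL-10 stood apart for this probe set, whose name marks probes common to several transcripts.

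PML bodies are nuclear structures that silence incoming viral DNA, built by Pml with Sp100 and Daxx. Daxx read 10.04 and 9.75 unstimulated, 12.41 and 11.93 with LPS, and 10.69 and 9.89 with LPS plus IL-10 in IL10-/- cells. Without p50 as well, Daxx read 10.15 and 10.04 unstimulated, 12.84 and 12.70 with LPS, and 12.52 and 12.66 with LPS plus IL-10. IL-10 thus took Daxx in IL10-/- cells most of the way back to the unstimulated level, and in p50-/-IL10-/- cells both arrays stayed above 12.5. Pml went from 9.75 and 8.91 with LPS to 8.14 and 7.41 with IL-10 in IL10-/- cells and from 10.60 and 10.09 to 9.64 and 10.15 in p50-/-IL10-/- cells, where the arrays overlapped.

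Members that act on entry, replication and release include the Mx1 and Mx2 GTPases, which trap viral particles and nucleoproteins. Mx1 read 7.79 and 5.34 unstimulated, 11.83 and 10.63 with LPS, and 8.78 and 6.66 with LPS plus IL-10 in IL10-/- cells. It read 8.71 and 8.10 unstimulated, 12.26 and 12.16 with LPS, and 11.39 and 11.67 with LPS plus IL-10 in p50-/-IL10-/- cells. Array 2 of the unstimulated IL10-/- cells was dim for Mx1, at 5.34, so folds against that group are uncertain in size. Mx2 read 7.30 and 7.11 unstimulated, 10.80 and 10.37 with LPS, and 8.29 and 7.41 with LPS plus IL-10 in IL10-/- cells. It read 7.94 and 7.78 unstimulated, 11.35 and 11.37 with LPS, and 10.56 and 10.72 with LPS plus IL-10 in p50-/-IL10-/- cells, and its IL10-/- arrays were closer together than those of Mx1. Cmpk2, a nucleotide kinase whose gene is the neighbour of Rsad2, read 7.90 and 6.73 unstimulated, 11.71 and 10.89 with LPS, and 8.86 and 7.97 with LPS plus IL-10 in IL10-/- cells. Its p50-/-IL10-/- values were 9.27 and 8.57 unstimulated, 12.42 and 12.68 with LPS, and 11.81 and 11.57 with LPS plus IL-10. Rsad2 encodes viperin, which makes a chain-terminating nucleotide. It fell from 13.78 and 13.32 with LPS to 12.17 and 10.76 with IL-10 in IL10-/- cells, and read 13.84 and 13.89 with LPS and 13.74 and 13.60 with IL-10 in p50-/-IL10-/- cells. The highest value of any probe set was 14.22, so differences among such levels may be understated. Other Rsad2 probe sets gave -3.10 and -3.00 for IL-10 in IL10-/- cells (-2.08 here) and -0.56 and -0.30 in p50-/-IL10-/- cells (-0.20 here). Between genotypes with LPS they gave 1.30 and 0.69 (0.32 here). Ifitm3, which blocks viral entry, stayed between 11.98 and 13.09 on all 12 arrays. Bst2, which tethers budding virus, had 10.07 and 8.06 in unstimulated IL10-/- cells and 10.76 and 10.78 in unstimulated p50-/-IL10-/- cells.

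Of the other interferon-induced genes, Nmi and Ifi35 encode partner proteins that interact with each other, and that of Nmi also interacts with STAT factors. Nmi read 8.84 and 8.19 unstimulated, 10.22 and 10.04 with LPS, and 9.48 and 9.17 with LPS plus IL-10 in IL10-/- cells. It read 9.03 and 9.0 unstimulated, 10.49 and 10.10 with LPS, and 9.90 and 10.10 with LPS plus IL-10 in p50-/-IL10-/- cells. The LPS arrays of both genotypes overlapped for Nmi, which held for no other member. Ifi35 read 8.81 and 8.15 unstimulated, 10.61 and 10.20 with LPS, and 9.74 and 8.92 with LPS plus IL-10 in IL10-/- cells. Ifi35 read 9.55 and 9.60 unstimulated, 11.08 and 10.66 with LPS, and 10.45 and 10.82 with LPS plus IL-10 in p50-/-IL10-/- cells. Ifi44l read 9.65 and 7.36 unstimulated, 10.97 and 9.90 with LPS, and 9.70 and 7.42 with LPS plus IL-10 in IL10-/- cells and had the wide gap between arrays of the OAS group. It read 11.16 and 10.87 unstimulated, 12.18 and 12.02 with LPS, and 11.74 and 11.91 with LPS plus IL-10 in p50-/-IL10-/- cells, above every IL10-/- array at the same stimulus by more than 1 log2. Rtp4, a chaperone of receptor transport that is induced by interferon, read 10.83 and 8.78 unstimulated, 12.31 and 11.70 with LPS, and 11.75 and 10.02 with LPS plus IL-10 in IL10-/- cells. It read 11.62 and 11.33 unstimulated, 12.62 and 12.41 with LPS, and 12.29 and 12.38 with LPS plus IL-10 in p50-/-IL10-/- cells.

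**Figure D2:**
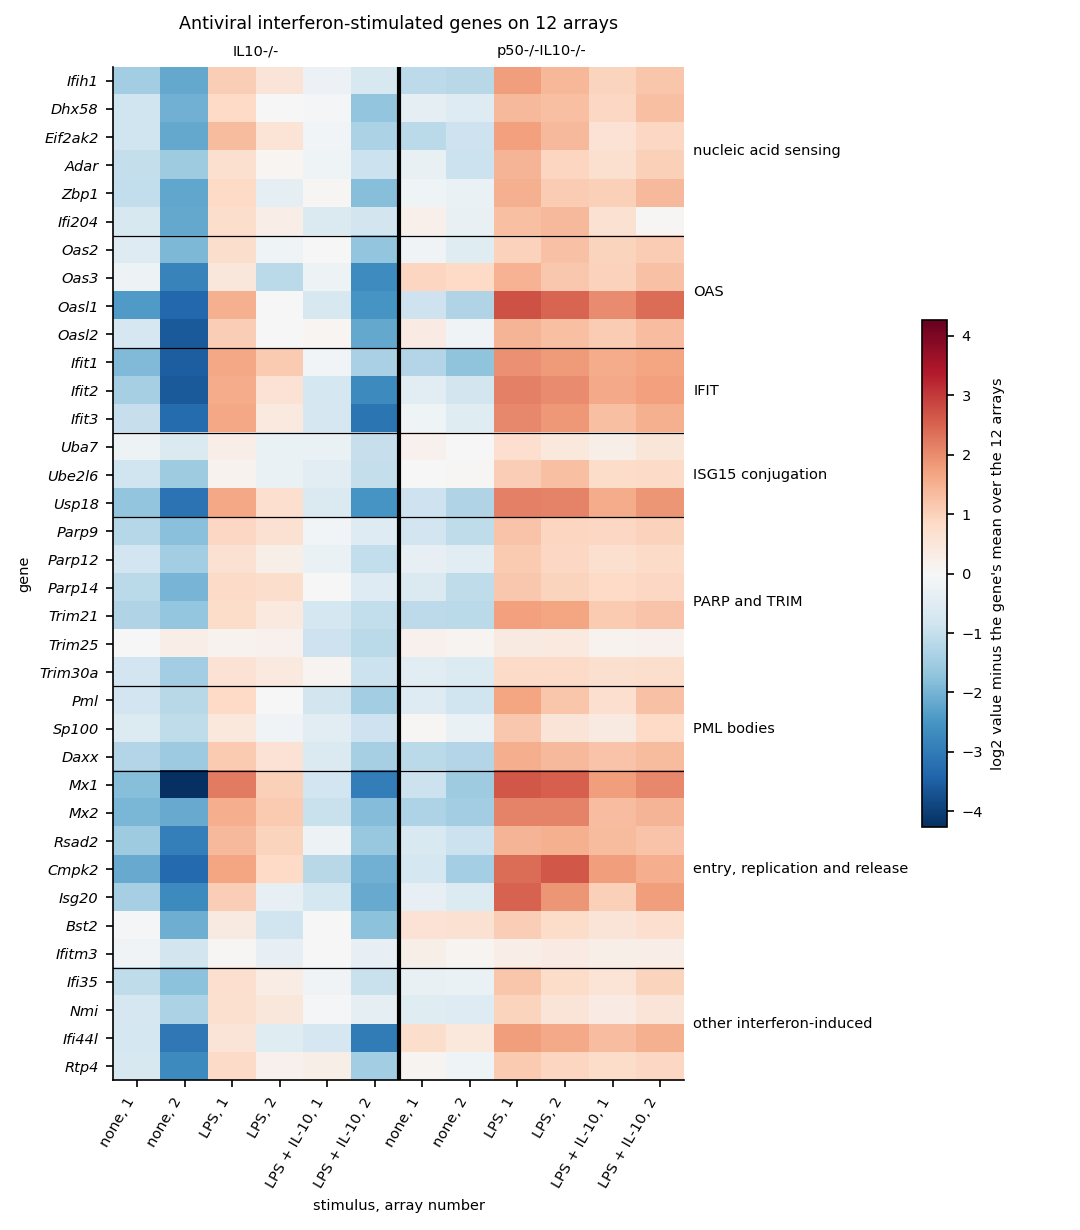
Log2 expression of each measured member (rows, by function group) on each array (columns, by genotype, stimulus and array number), minus the gene's mean over the 12 arrays, on a colour scale from blue (below the mean) to red (above). In IL10-/- cells the array numbered 2 is bluer than array 1 in nearly every row, and the p50-/-IL10-/- arrays given LPS and IL-10 stay red where the IL10-/- ones turn back towards blue.

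**Figure D3:**
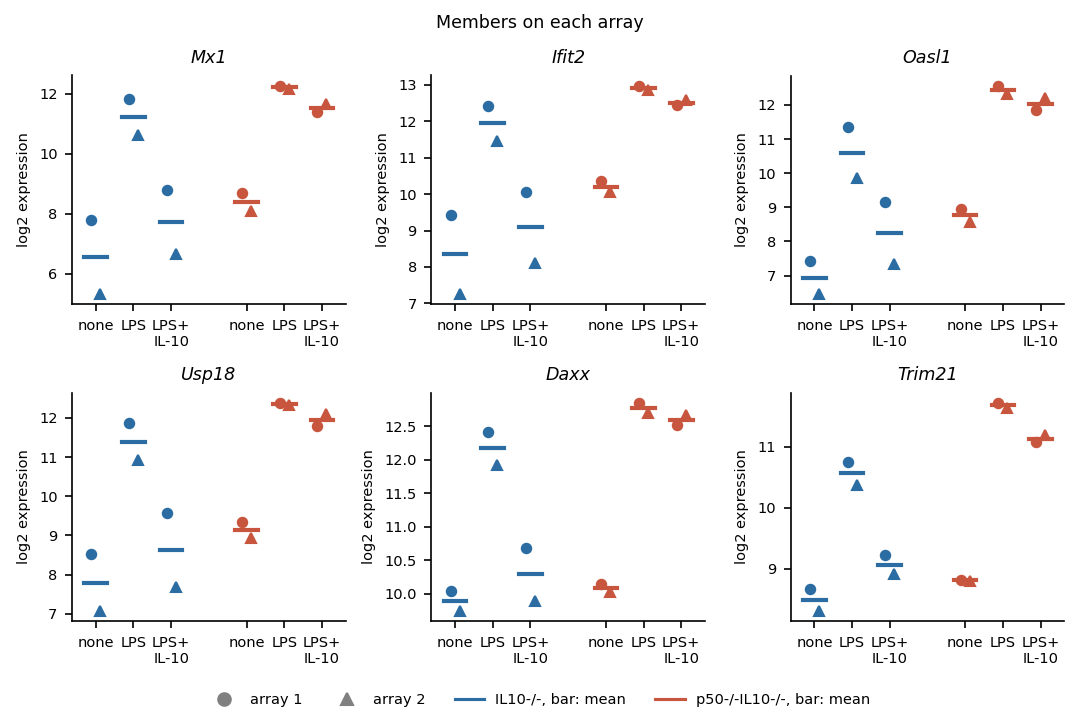
Log2 expression of Mx1, Ifit2, Oasl1, Usp18, Daxx and Trim21 on each array (circles for array 1, triangles for array 2) with the mean of the 2 arrays as a bar, by stimulus, in IL10-/- (blue) and p50-/-IL10-/- cells (red). The vertical axes differ between panels and do not start at 0. In every panel the IL10-/- arrays with LPS and IL-10 lie below those with LPS alone and below the p50-/-IL10-/- arrays given both.

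LPS raised most members in both genotypes. In IL10-/- cells 29 of 36 members rose and 0 fell, against 7.76% of all genes that rose, and the median difference over the members was 2.02 log2 against -0.01 over all genes. In p50-/-IL10-/- cells 26 of 36 rose and 0 fell, against 10.3% of all genes, with a median of 1.82 against -0.01. A gene was called where limma's adjusted p (Benjamini-Hochberg over all genes of the comparison) was under 0.05. With the IL10-/- arrays numbered 2 left out the counts were 32 and 34, and with those numbered 1 left out 33 and 34, IL10-/- cells first. All 36 differences were above 0 in both genotypes, and all 6 sensors, 3 of 3 IFIT genes and 3 of 3 PML body genes were called in IL10-/- cells.

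With LPS in IL10-/- cells, Mx1 rose by 4.67 ± 0.77 log2 (SE, 25.4-fold, adjusted p = 0.00125), Ifit1 by 4.08 ± 0.48 (16.9-fold, adjusted p = 0.000138) and Cmpk2 by 3.99 ± 0.41 (15.9-fold, adjusted p = 5.84e-05). Oasl1 rose by 3.66 ± 0.58, Usp18 by 3.60 ± 0.57, Ifih1 by 2.64 ± 0.24, Parp14 by 2.35 ± 0.25, Daxx by 2.28 ± 0.23 and Rtp4 by 2.20 ± 0.61, with adjusted p from 2.76e-05 for Ifih1 to 0.023 for Rtp4. Rtp4 was not called without array 2 of the unstimulated IL10-/- cells (adjusted p = 0.186) or without array 1 of those given LPS (0.134). The 7 members not called were Oas2, Oas3, Uba7, Trim25, Bst2, Ifitm3 and Ifi44l. Their differences ran from 0.02 ± 0.11 for Trim25 to 1.93 ± 0.75 for Ifi44l.

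In p50-/-IL10-/- cells the largest LPS effects were 3.80 ± 0.77 for Mx1 (14-fold, adjusted p = 0.0031), 3.68 ± 0.58 for Oasl1 (12.8-fold, adjusted p = 0.000605) and 3.63 ± 0.41 for Cmpk2 (12.4-fold, adjusted p = 6.67e-05). Ifit1 rose by 3.36 ± 0.48, Usp18 by 3.21 ± 0.57, Trim21 by 2.86 ± 0.15, Ifih1 by 2.75 ± 0.24, Daxx by 2.68 ± 0.23 and Ifi35 by 1.29 ± 0.28. Adjusted p ran from 3.82e-07 for Trim21 to 0.00507 for Ifi35, which was not called without array 1 of the p50-/-IL10-/- cells given LPS (0.0519). The 10 members not called were Zbp1, Oas2, Oas3, Oasl2, Uba7, Trim25, Bst2, Ifitm3, Ifi44l and Rtp4. Before LPS, Oas3 read 11.06 and 11.01 and Ifi44l 11.16 and 10.87, and the part of such levels in the missed calls was not tested. For 36 of 36 members both LPS arrays lay above both unstimulated arrays in this genotype, against 3511 of all 12393 genes. For Trim25, the third probe set rose with LPS by 1.14 in IL10-/- and 1.47 in p50-/-IL10-/- cells, where the probe set with the highest mean gave 0.02 and 0.25. Other probe sets of Zbp1, Uba7, Ifi44l and Rtp4 also passed in p50-/-IL10-/- cells, with 2.68, 1.32, 1.03 and 1.30, and those of Uba7 and Ifi44l passed in IL10-/- cells, with 0.62 and 0.50 (adjusted over all probe sets).

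The difference between the genotypes' LPS responses was tested for each member, and 0 of 36 were called by limma, against 1.19% of all genes called in either direction. At an unadjusted p under 0.05 it was 1 of 36, Trim21, with 0.79 ± 0.21 log2 more in p50-/-IL10-/- cells (adjusted p = 0.14). The median over the members was -0.28, and 24 of 36 differences were below 0. The largest were -1.41 ± 1.19 for Oasl2 and -1.16 ± 0.86 for Rtp4, and the part of the unstimulated levels in these was not tested. Other probe sets of Cmpk2 and Zbp1 gave 0.84 and 0.98 (-0.36 and -0.32 here). Those of Dhx58 gave 0.72 and -0.01 (-0.04 here), of Ifi44l 0.53 and -0.87 (-0.84 here) and of Uba7 0.69 and -0.05 (0.07 here). Those of Rsad2, Rtp4 and Trim30a stayed below 0 and those of Eif2ak2, Trim21 and Trim25 above 0. With the mean of all probe sets the member median was -0.19. The median over the members was -0.08 with all 3 IL10-/- arrays numbered 2 left out and -0.36 with those numbered 1 left out. Over the single arrays left out in turn it ran from -0.67 to 0.26.

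IL-10 lowered members in LPS-treated IL10-/- cells. There, 17 of 36 fell and 0 rose, against 2.82% of all genes that fell, and the median difference was -1.24 log2 against 0.01 over all genes. All 36 differences were below 0, and for 29 of 36 the IL-10 arrays lay below both LPS arrays, against 17.2% of all genes. Every function group had at least 1 called member, with 5 of 6 in the PARP and TRIM group, 4 of 7 in the entry, replication and release group, 2 of 3 IFIT genes and 2 of 3 PML body genes.

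Before the fold, the arrays of Mx1 went from 11.83 and 10.63 with LPS to 8.78 and 6.66 with IL-10, and its level fell by 3.51 ± 0.77 (11.4-fold, adjusted p = 0.0216). Cmpk2 fell by 2.89 ± 0.41 (7.4-fold, adjusted p = 0.00189) and Ifit2 by 2.86 ± 0.68 (7.24-fold, adjusted p = 0.032). Usp18 fell by 2.76 ± 0.57, Oasl1 by 2.36 ± 0.58, Daxx by 1.88 ± 0.23, Trim21 by 1.50 ± 0.15, Ifih1 by 1.26 ± 0.24 and Nmi by 0.80 ± 0.20. The smallest adjusted p of these was 0.00021, for Trim21, and the largest was 0.0398, for Nmi. Mx2 fell by 2.73 ± 0.23 with adjusted p = 7.28e-05, the lowest among the members. The 3 probe sets of Trim25 fell by 1.17, 1.07 and 1.34.

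Ifit3 missed the threshold with a difference of -2.95 ± 0.79 (adjusted p = 0.0545), and its IL10-/- arrays with both stimuli read 10.64 and 8.23. Ifitm3 and Bst2 had differences of -0.02 ± 0.20 and -0.63 ± 0.65. The count of called members was 5 without the LPS array 1 and 5 without array 2 of the cells given both stimuli, and Mx1, Ifit2, Usp18, Oasl1 and Ifih1 lost their calls both times (adjusted p from 0.0933 to 0.255). With all 3 arrays numbered 2 left out it was 23 (median -1.01) and with all 3 arrays numbered 1 left out it was 30 (median -1.50), where limma took the spread from the p50-/-IL10-/- arrays alone. Nmi lost its call whichever of the 4 arrays was left out (adjusted p from 0.0557 to 0.251).

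IL-10 had no called effect on the members in p50-/-IL10-/- cells. By limma, 0 of 36 were called, against 2.87% of all genes that fell, and 3 of 36 had an unadjusted p under 0.05. All 36 differences were below 0, with a median of -0.27 against 0.05 over all genes, and for 24 of 36 the arrays did not overlap, against 19.2% of all genes. The lowest adjusted p was 0.055, for Trim21, whose difference was -0.55 ± 0.15. Ifi204 had a difference of -0.99 ± 0.39, close to its -1.21 ± 0.39 in IL10-/- cells, and Cmpk2 one of -0.86 ± 0.41. On arrays numbered 2 alone 10 of 36 members were above 0, and on arrays numbered 1 none was, with medians of -0.10 and -0.52. The spread used here came from all 6 groups, and 7 members were called when either number of the IL10-/- arrays was left out. A difference that missed the threshold is thus not shown to be absent.

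The difference between the genotypes' IL-10 effects was tested directly. By limma 0 of 36 members were called, against 0.137% of all genes in either direction, while 35 of 36 differences were above 0, that is, with less lowering in p50-/-IL10-/- cells. The median was 0.95 log2, and 15 of 36 had an unadjusted p under 0.05. Trim25, at 0.94 ± 0.15, and Mx2, at 2.01 ± 0.33, had adjusted p = 0.0534, the lowest among the members. Mx1 had 2.83 ± 1.09, Ifit2 2.45 ± 0.96, Usp18 2.37 ± 0.81 and Daxx 1.70 ± 0.32. For Ifi204 the difference was 0.23 ± 0.56 and for Ifitm3 -0.03 ± 0.28. Over the single arrays left out in turn the count ran from 0 to 3, with 3 without array 1 of the IL10-/- cells given both stimuli, 1 without array 2 of that group and 1 without array 2 of the IL10-/- cells given LPS. With the IL10-/- arrays numbered 2 left out it was 8, and with those numbered 1 left out 15, all with less lowering in p50-/-IL10-/- cells.

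**Figure D4:**
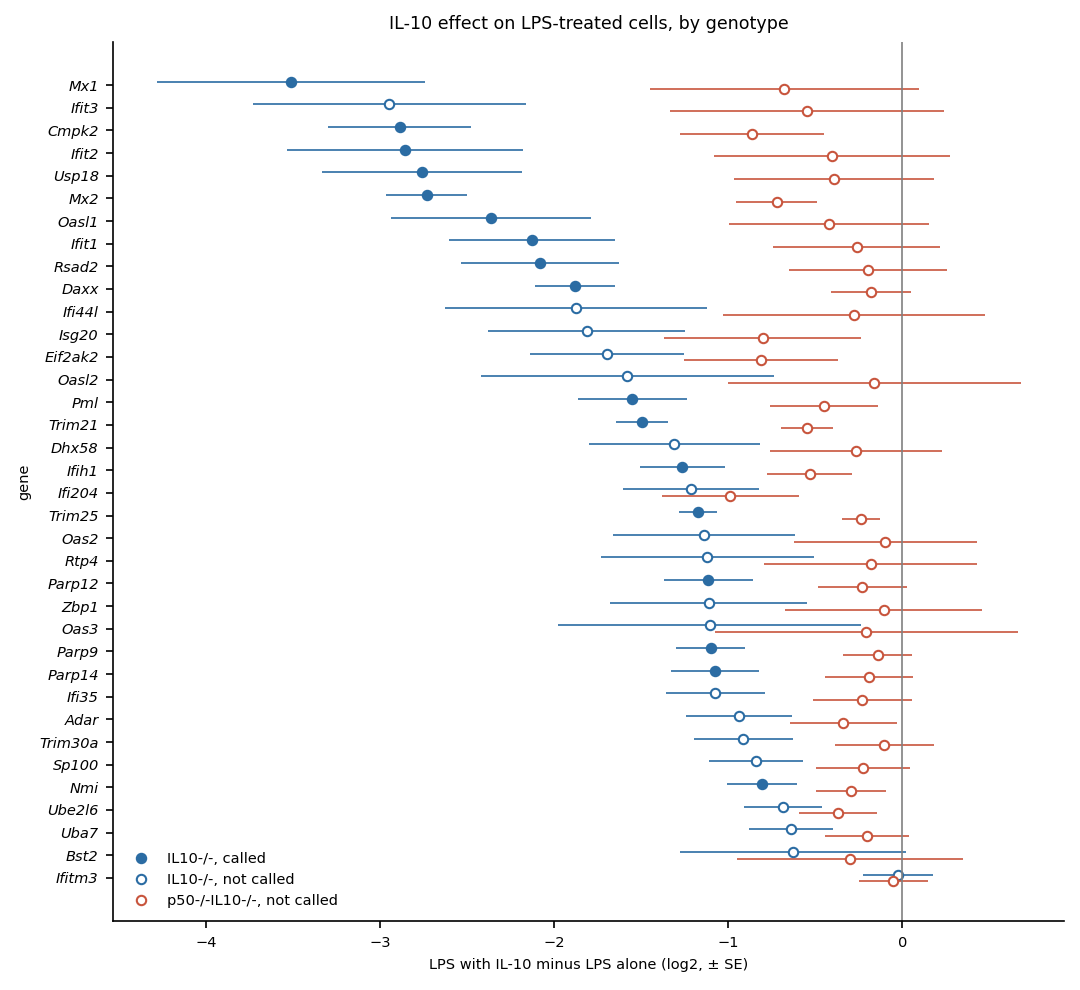
Fitted log2 difference between LPS with IL-10 and LPS alone (horizontal axis, ± SE) for each of the 36 members (rows, ordered by the IL10-/- value), in IL10-/- (blue) and p50-/-IL10-/- cells (red), with filled points for an adjusted p under 0.05. All points lie left of 0, and 17 blue and 0 red points are filled.

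The levels under LPS with IL-10 were also set against those without stimulus. In IL10-/- cells 6 of 36 members were called higher than without stimulus, against 6.94% of all genes, and Trim25 alone was called lower, against 12.5% of all genes. The median difference was 0.73, with 33 of 36 differences above 0. Ifit1 stood 1.95 ± 0.48 above (3.88-fold, adjusted p = 0.0151), Ifih1 1.38 ± 0.24, Parp14 1.27 ± 0.25 and Nmi 0.81 ± 0.20, and Trim25 fell by 1.15 ± 0.11 (adjusted p = 3.57e-05). The other probe sets of Trim25 differed by -0.92 and -0.20, and the latter was not called (limma, adjusted p = 0.492 over all probe sets). Parp9 and Trim21 were the remaining called members. The count was 15 without array 1 of the unstimulated cells or array 2 of those given both stimuli, and 4 without array 2 of the former or array 1 of the latter, when neither Ifit1 (adjusted p of 0.117 and 0.141) nor Nmi (0.128 and 0.127) was called. It was 18 with either number of the IL10-/- arrays left out.

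Of the 36 members, 23 were called higher in p50-/-IL10-/- cells after LPS with IL-10 than without stimulus, against 16.7% of all genes, with a median of 1.52. Oasl1 stood 3.26 ± 0.58 above (9.57-fold, adjusted p = 0.00149), Mx1 3.12 ± 0.77 (8.72-fold, adjusted p = 0.00987) and Ifit1 3.10 ± 0.48 (8.55-fold, adjusted p = 0.000647). Usp18 stood 2.81 ± 0.57 above, Daxx 2.50 ± 0.23, Trim21 2.32 ± 0.15, Ifih1 2.22 ± 0.24 and Ifi35 1.06 ± 0.28. Mx1 was not called without array 2 of the unstimulated p50-/-IL10-/- cells (adjusted p = 0.0674) or array 2 of those given both stimuli (0.0587), and Ifi35 was called in 1 of the 4 fits that left out an array.

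Before any stimulus the members read higher in p50-/-IL10-/- than in IL10-/- cells, though nearly all missed the threshold. For 32 of 36 the p50-/-IL10-/- arrays lay above both IL10-/- arrays, against 21.3% of all genes, and the median difference was 1.03 log2 against -0.01 over all genes. Called was 1 of 36, against 1.26% of all genes that were higher, and 27 of 36 had an unadjusted p under 0.05. Ube2l6 was this member, at 1.24 ± 0.22 (2.36-fold, adjusted p = 0.0154). The largest difference was 2.51 ± 0.75 for Ifi44l (adjusted p = 0.135), with 2.68 and 0.83 on its other probe sets, followed by 2.43 ± 0.87 for Oas3 and 2.25 ± 0.84 for Oasl2. The Ifi44l probe set with 0.83, whose mean level was 6.08, passed (limma, adjusted p = 0.00568 over all probe sets). The size depended on the IL10-/- array, with a median of 0.52 without the unstimulated IL10-/- array 2 and of 1.56 without array 1. Leaving out all IL10-/- arrays of that number gave the same medians, so the counts of these fits differ through the spread used and not the size. The count was 11 without the IL10-/- array 1, 0 without any other single array of these groups (adjusted p of Ube2l6 from 0.0943 to 0.122), 7 with all IL10-/- arrays numbered 2 left out and 31 with those numbered 1 left out.

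With LPS alone the pattern was alike. The p50-/-IL10-/- arrays lay above the IL10-/- arrays for 35 of 36 members, against 21.6% of all genes, with a median of 0.80, and 2 of 36 were called, against 5.66% of all genes. These were Ube2l6, at 1.24 ± 0.22 (2.36-fold, adjusted p = 0.00563), and Trim21, at 1.12 ± 0.15 (2.17-fold, adjusted p = 0.000964), whose other probe set gave 1.04 (limma, adjusted p = 0.0675 over all probe sets). Among members not called, a further probe set of Ifi44l passed with 1.36 and one of Uba7 with 0.64 (limma, adjusted p = 0.000144 and 0.0174 over all probe sets). Isg20, an exonuclease that degrades RNA, and Oasl1 had larger differences, 1.85 ± 0.57 and 1.84 ± 0.58, with adjusted p = 0.0597 and 0.0646. The count was 8 without the IL10-/- LPS array 1, 7 with all IL10-/- arrays numbered 2 left out and 32 with those numbered 1 left out.

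With LPS and IL-10 together the median genotype difference of the members was the largest of the 3 stimuli. Of 36 members, 30 were higher in p50-/-IL10-/- cells and 0 lower, against 7.58% of all genes that were higher. The median was 1.92 against 0.04 over all genes, and for 36 of 36 the arrays did not overlap, against 35.4% of all genes. All members of the IFIT, ISG15 conjugation, PARP and TRIM and PML body groups were called. The 6 not called were Ifi204, Oas3, Oasl2, Bst2, Ifitm3 and Rtp4.

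Mx1 was 3.81 ± 0.77 higher in p50-/-IL10-/- cells (14-fold, adjusted p = 0.00779), Oasl1 3.78 ± 0.58 (13.8-fold, adjusted p = 0.00175) and Ifit2 3.42 ± 0.68 (10.7-fold, adjusted p = 0.00705). Usp18 was 3.32 ± 0.57 higher, Ifi44l 3.26 ± 0.75, Daxx 2.30 ± 0.23, Zbp1 2.07 ± 0.57 and Trim21 2.07 ± 0.15, with adjusted p from 2.33e-05 for Trim21 to 0.03 for Zbp1. The lower p50-/-IL10-/- array exceeded the higher IL10-/- array by 2.70 for Cmpk2, 2.69 for Oasl1, 2.61 for Mx1 and 0.20 for Ifitm3. The count was 12 without array 2 of the IL10-/- cells given both stimuli and 14 without array 2 of the p50-/-IL10-/- cells given both, and it was 33 with all IL10-/- arrays numbered 2 and 36 with those numbered 1 left out. Mx1 was not called without array 2 of these IL10-/- cells (adjusted p = 0.0669), nor were Ifit2 (0.0583), Ifi44l (0.115) and Zbp1 (0.22). Without array 2 of the p50-/-IL10-/- cells given both stimuli, Mx1 (0.0554), Ifi44l (0.0791) and Zbp1 (0.146) were not called, and without array 1 of that group Ifi44l (0.0647) and Zbp1 (0.0899) were not.

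Genes of the pathway that leads to the members were taken from a list of its receptors, kinases and factors, of which 31 were measured. The gene for RIG-I had no probe set naming it alone and was not analysed here. Ifnb1, the gene for interferon beta, read 6.04 and 6.00 unstimulated, 6.87 and 6.34 with LPS, and 5.91 and 5.70 with LPS plus IL-10 in IL10-/- cells. It read 5.77 and 5.92 unstimulated, 8.14 and 7.68 with LPS, and 6.40 and 6.62 with LPS plus IL-10 in p50-/-IL10-/- cells. Ifnb1 was thus above 7.5 on the p50-/-IL10-/- arrays with LPS alone and at 6.87 or below on all others, and near the dim limit without stimulus. Its mean in IL10-/- cells with both stimuli lay under that limit, so the size of its change there is uncertain. Irf7, a factor that amplifies interferon production, read 10.01 and 7.85 unstimulated, 11.54 and 10.48 with LPS, and 10.25 and 8.01 with LPS plus IL-10 in IL10-/- cells and showed the same gap between array numbers as the members. It read 11.76 and 11.47 unstimulated, 12.28 and 12.03 with LPS, and 11.74 and 12.04 with LPS plus IL-10 in p50-/-IL10-/- cells. Irf1, which binds elements like the ISRE, read 10.40 and 10.31 unstimulated, 12.55 and 12.53 with LPS, and 11.18 and 11.25 with LPS plus IL-10 in IL10-/- cells and showed no such gap. It read 10.52 and 10.42 unstimulated, 12.96 and 13.00 with LPS, and 12.69 and 12.73 with LPS plus IL-10 in p50-/-IL10-/- cells.

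LPS raised 13 and lowered 3 of the 31 pathway genes in IL10-/- cells, against 7.76% of all genes that rose and 17.1% that fell. It raised 13 and lowered 4 in p50-/-IL10-/- cells, against 10.3% and 22.1%. In IL10-/- cells the largest called changes were 2.37 ± 0.41 for Stat2, a subunit of ISGF3, 2.19 ± 0.07 for Irf1, 2.00 ± 0.08 for Jak2, 1.67 ± 0.38 for Socs1, an inhibitor of JAK kinases, and 1.40 ± 0.23 for Tlr3, a receptor for double-stranded RNA. Irf7 and Oas1a, whose means there went from 8.93 to 11.01 and from 10.34 to 11.87, were not called. The largest called changes in p50-/-IL10-/- cells were 3.97 ± 0.38 for Socs1, 2.51 ± 0.07 for Irf1, 2.46 ± 0.41 for Stat2, 2.26 ± 0.23 for Tlr3 and 2.06 ± 0.18 for Ifnb1. The LPS response of Ifnb1 was larger in p50-/-IL10-/- cells by 1.48 ± 0.26 log2 (adjusted p = 0.026, limma), the single pathway gene called for that difference. This call was lost in 6 of the 8 fits that left out 1 array, all but those without array 1 of the IL10-/- or array 2 of the p50-/-IL10-/- cells given LPS, with adjusted p up to 0.117.

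IL-10 raised 4 and lowered 7 pathway genes in LPS-treated IL10-/- cells, against 3.35% of all genes that rose and 2.82% that fell. The largest called changes were -1.32 ± 0.07 for Irf1, -1.20 ± 0.23 for Tlr3, 0.93 ± 0.15 for Sting1, an adaptor of DNA sensing, -0.80 ± 0.18 for Ifnb1 (adjusted p = 0.0268) and -0.72 ± 0.11 for Tyk2, a kinase of the interferon receptor. Irf7 had a larger difference of -1.88 but was not called. Stat2 and Socs1, whose means went from 9.50 to 8.01 and from 8.25 to 6.91, were not called either. In p50-/-IL10-/- cells IL-10 raised Sting1 and Ifnar1, by 0.82 ± 0.15 and 0.38 ± 0.10, and lowered 3, with -1.62 ± 0.38 for Socs1, -1.40 ± 0.18 for Ifnb1 (adjusted p = 0.00167) and -0.45 ± 0.08 for Ifngr1, against 3.7% of all genes that rose and 2.87% that fell. The count in IL10-/- cells was 4 without the LPS array 1 and 5 without array 2 of the cells given both stimuli, when neither Tlr3 nor Ifnb1 was called (adjusted p from 0.0856 to 0.184), and 4 with all IL10-/- arrays numbered 1 left out. The count in p50-/-IL10-/- cells ran from 1 to 3 over the single arrays left out, and Ifnb1 alone kept its call each time (highest adjusted p = 0.022). Ifnb1 was called in IL10-/- cells in 1 of the 4 fits that left out an array. The genotypes' IL-10 effects differed for Irf1 by 1.06 ± 0.10 (adjusted p = 0.00295), the single pathway gene called there, and it kept this call in all 8 fits that left out 1 array.

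Between genotypes, 1 pathway gene was called without stimulus, Ifngr1, against 1.31% of all genes that were lower. Its signed log2 difference was -0.70 ± 0.08, lower in p50-/-IL10-/- cells. The largest difference without stimulus, 2.69 for Irf7, was not called, though its p50-/-IL10-/- arrays (11.76 and 11.47) lay above both IL10-/- arrays (10.01 and 7.85). With LPS 8 were higher and 3 lower, against 5.66% and 6.72% of all genes, led by 2.27 ± 0.38 for Socs1, 1.30 ± 0.18 for Ifnb1, 1.06 ± 0.23 for Tlr3, -0.79 ± 0.10 for Ifnar1, a chain of the interferon receptor, and 0.76 ± 0.17 for Irf8. Their number was 5 without array 2 of the IL10-/- and 4 without array 1 of the p50-/-IL10-/- cells given LPS, when neither Tlr3 nor Irf8 was called (adjusted p from 0.0956 to 0.127). With all IL10-/- arrays numbered 2 left out it was 7, and with those numbered 1 left out 16. With both stimuli 11 were higher and 5 lower, against 7.58% and 10.4% of all genes, led by 2.76 ± 0.73 for Irf7, 2.16 ± 0.41 for Stat2, 1.99 ± 0.38 for Socs1, 1.69 ± 0.23 for Tlr3 and 1.49 ± 0.07 for Irf1. This number was 9 without array 2 of the IL10-/- cells, 10 without array 1 and 10 without array 2 of the p50-/-IL10-/- cells given both, and Irf7 was not called in any of these fits (adjusted p from 0.0896 to 0.195), nor Stat2 without array 2 of either genotype (0.0537 and 0.0541). Against unstimulated cells, LPS with IL-10 raised 8 and lowered 1 in IL10-/- cells, against 6.94% and 12.5% of all genes, led by 1.95 ± 0.08 for Jak2, 1.29 ± 0.13 for Ikbke and 0.86 ± 0.07 for Irf1, followed by Sting1 at 0.76 and Ifngr2 at 0.59, whose call was lost whichever of the 4 arrays was left out. In p50-/-IL10-/- cells it raised 15 and lowered 4, against 16.7% and 21.2% of all genes, led by 2.36 ± 0.41 for Stat2, 2.34 ± 0.38 for Socs1, 2.24 ± 0.07 for Irf1, 2.17 ± 0.08 for Jak2 and 1.70 ± 0.23 for Tlr3.

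**Figure D5:**
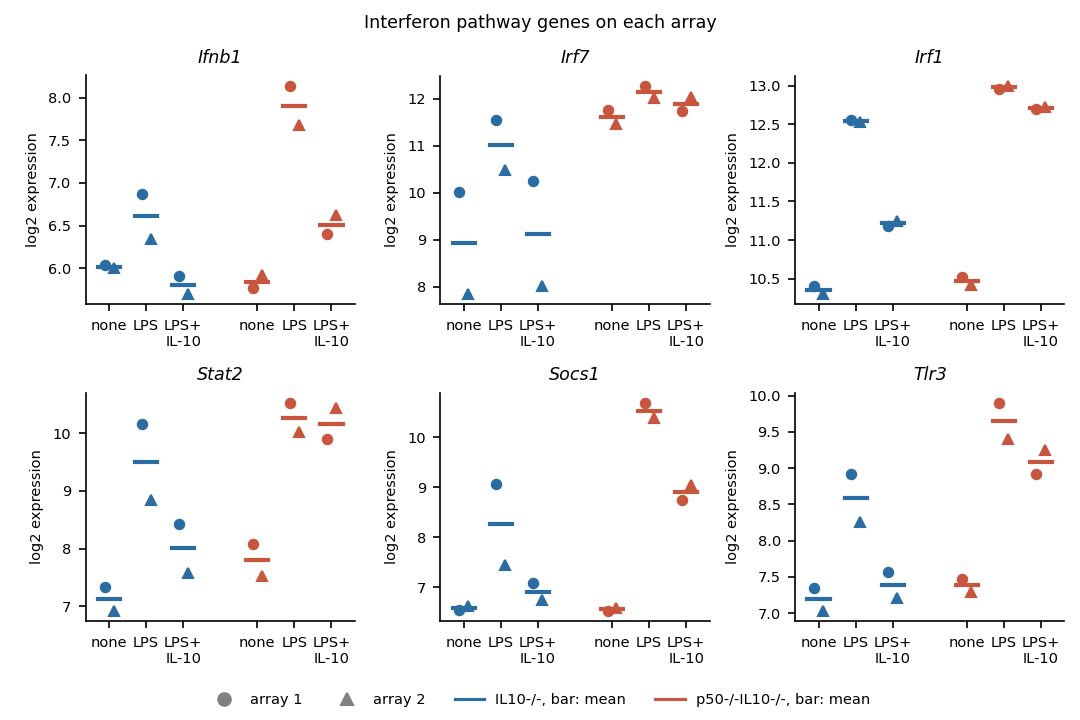
Log2 expression of Ifnb1, Irf7, Irf1, Stat2, Socs1 and Tlr3 on each array (circles for array 1, triangles for array 2) with the mean of the 2 arrays as a bar, by stimulus, in IL10-/- (blue) and p50-/-IL10-/- cells (red). The vertical axes differ between panels and do not start at 0. Ifnb1 is highest on the p50-/-IL10-/- arrays with LPS, at 8.14 and 7.68, and Irf7 of p50-/-IL10-/- cells stays at 11.47 or above at every stimulus.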

How the data were processed

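RNA of 12 macrophage samples was hybridised to 1-colour Affymetrix arrays. The authors deposited log2 values per probe set. RMA, which corrects background, quantile normalizes between arrays and summarises probes, and limma are named per the submitters' processing notes; versions, options and genome build are not given in the sources used here. RMA compresses low signals and removes differences in total RNA, and precision is limited by how few arrays there are.

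The arrays carried 22690 probe sets. GEO's platform annotation gave 20380 of them 1 gene symbol, 691 several and 1555 none, and 64 of the probe sets were controls. The probe set with the highest mean stood for each of 12393 genes, and 11 members had several. All genes were fitted with limma 3.58.1 in R 4.3.3 (lmFit and eBayes, 1 mean for each of 6 groups, 6 residual and 4.47 prior degrees of freedom, median SE of a difference 0.0998). The test was two-sided, with Benjamini-Hochberg adjustment over all genes of each of 11 comparisons and a threshold of 0.05. The script was tested on simulated data. With 2 arrays against 2, the smallest p of an exact permutation test is 0.333. P-values reflect only the spread among these samples, which may be technical. Comparisons within a genotype share groups and are not independent.

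Named with statistics were, in each comparison, the called member with the largest difference of each function group and the 3 largest called of all members. Members called against the majority and the 5 largest called of the pathway list were named as well. Others named, such as Ifit3, Trim25, Ifi204 and Isg20, were chosen after their values were seen. Members and lists were chosen with earlier results of these data known.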

Additional observations from a re-analysis of the deposited data

Results flagged for a closer look

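The difference between genotypes in a response passed the test for 2 genes of the pathway list. The LPS response of Ifnb1 was 1.48 log2 larger in p50-/-IL10-/- than in IL10-/- cells (limma, adjusted p = 0.026), a call lost in 6 of the 8 fits that left out 1 array. The IL-10 effect on Irf1 differed by 1.06 log2 (limma, adjusted p = 0.00295), with less lowering in p50-/-IL10-/- cells, and it was called in all 8 such fits. Groups of 2 arrays are too small to single out an array by its distance from the others.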

How the results depend on the processing

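The counts of called members for LPS in IL10-/- cells (29), LPS in p50-/-IL10-/- cells (26) and both stimuli against none in p50-/-IL10-/- cells (23) stayed within 1.5 times under every alternative run. The mean of all probe sets, the dim filter (9720 genes, all 36 members) and an intensity trend moved none of the 11 member counts by more than that. No named member turned its direction. With the mean of all probe sets the pathway gene Ifnar2 did, to 0.34 for IL-10 in p50-/-IL10-/- cells and -0.35 between genotypes with LPS; the cause was not tested. Among gene results over all alternatives, 340 lost a call and 612 gained one. The replicate numbers are not known to pair cultures. Same-numbered IL10-/- arrays deviated together over all genes (correlations of 0.40, 0.59 and 0.59), and p50-/-IL10-/- arrays did not in each case (0.28, -0.34 and -0.49). A replicate block across all groups gave 13 members for both stimuli in IL10-/- cells (7 without it), 1 for IL-10 in p50-/-IL10-/- cells (0), 7 between unstimulated genotypes (1), 9 with LPS (2) and 2 for the difference in IL-10 effects (0). A replicate block within genotype gave 35 for IL-10 in IL10-/- cells (17), 6 in p50-/-IL10-/- cells, 26 for both stimuli in IL10-/- cells, and 1 and 13 for the differences in LPS and IL-10 effects. On the LPS groups of p50-/-IL10-/- cells alone, the replicate block gave 6 called members as numbered and 19 with the numbers crossed. With only the groups compared in the fit, the counts were 10 and 7 for IL-10 in IL10-/- and p50-/-IL10-/- cells, 4 for both stimuli in IL10-/- cells, and 3 and 6 between genotypes without stimulus and with LPS. Centring the arrays gave 1 for IL-10 in p50-/-IL10-/- cells. With the IL10-/- arrays numbered 2 left out, the counts were 7 for IL-10 in p50-/-IL10-/- cells, 18 for both stimuli in IL10-/- cells, 7 and 7 between genotypes without stimulus and with LPS, and 8 for the difference in IL-10 effects. With those numbered 1 left out, chosen after seeing the data like the crossed numbers, they were 30 for IL-10 in IL10-/- cells, 7 in p50-/-IL10-/- cells, 18 for both stimuli, 31 and 32 between genotypes, and 8 and 15 for the differences in LPS and IL-10 effects. Leaving out single arrays gave 5 to 21 for IL-10 in IL10-/- cells, 0 in each case in p50-/-IL10-/- cells, 4 to 15 for both stimuli in IL10-/- cells, 0 to 11, 2 to 8 and 12 to 33 between genotypes without stimulus, with LPS and with both, and 0 to 1 and 0 to 3 for the differences in LPS and IL-10 effects. With 2 arrays a group, a left-out array leaves 1 sample that is assumed to vary like the others. Where all IL10-/- arrays of a number were left out, the spread came from the p50-/-IL10-/- arrays alone, without the gap between IL10-/- arrays. The member median for the difference in LPS effects was -0.08 without those numbered 2 and -0.36 without those numbered 1.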
